A study of Mus musculus with 12 samples.

Results

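In mouse islets, 3 of 8 listed genes whose introns carry small nucleolar RNAs (snoRNAs) could be measured: Gas5, Snhg5 and Snhg11. The list held Gas5, Snhg1, Snhg3, Snhg5, Snhg6, Snhg8, Snhg11 and Snhg12. A gene was measured when the array annotation gave a probe set its symbol alone, and it was represented by its brightest probe set over 12 arrays. The 3 genes have 7 such probe sets, 4 for Gas5, 2 for Snhg11 and 1 for Snhg5, out of 35511 probe sets, in which 19938 genes have at least 1 probe set alone. Snhg8 has only a probe set that it shares with Snora24. Snhg1, Snhg3, Snhg6 and Snhg12 have no probe set of their own and are named here without a level.

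Islets came from 129Sv mice with both copies of the prolactin receptor gene (Prlr+/+) or with neither (Prlr-/-), without pregnancy (NP) or on its day 9.5 (P9.5), aged 12 to 21 weeks by the wider of the ranges that the sources give. Each of the 4 groups had 3 biological replicates, each on an Affymetrix MoGene_1.0_ST array. The deletion is present from the germline in every tissue, so it is not restricted to islets. Pregnant Prlr-/- mice received a 5 mg progesterone pellet, which the methods describe for this genotype alone, so genotype and pellet cannot be told apart at P9.5. Between NP and P9.5 in Prlr-/- islets, pregnancy and pellet cannot be told apart either. The same holds for the interaction of stage and genotype. All values are log2 expression values of a probe set, rounded to 0.1 by the authors. A call needed a fold change of 1.5 or more and, in limma, a p below 0.05 after Benjamini-Hochberg adjustment across all probe sets.

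SnoRNAs guide the chemical modification of ribosomal RNA: box C/D snoRNAs direct methylation of the ribose and box H/ACA snoRNAs direct the conversion of uridine to pseudouridine. Most vertebrate snoRNAs are cut out of the introns of a host gene after splicing. The listed hosts are made mainly for their introns: the spliced exons code for no known conserved protein and are often degraded by nonsense-mediated decay, and the RNA of several of them, Gas5 among these, belongs to the 5′ terminal oligopyrimidine (5′TOP) class, whose translation follows mTOR signalling through the cap and the protein LARP1. Gas5 was found as a transcript that accumulates when cells stop growing, and its spliced RNA can bind the glucocorticoid receptor. Prolactin and placental lactogen act on islets through the prolactin receptor and the transcription factor STAT5 during pregnancy, when beta cells proliferate.

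The bases around the RefSeq start sites of the measured hosts are shown because a 5′TOP RNA begins with a C followed by other pyrimidines. Each line gives the 30 bases before and the 30 bases from a start in GRCm38.p6, on the gene's own strand. Capitals mark an unbroken run of at least 5 C or T letters that begins with C, searched from 10 bases before to 20 bases after the start on the gene's strand alone.
Gas5, start 1, chr1:161034571-161034630, plus strand: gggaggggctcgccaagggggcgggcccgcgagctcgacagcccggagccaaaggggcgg
Gas5, start 2, chr1:161035136-161035195, plus strand: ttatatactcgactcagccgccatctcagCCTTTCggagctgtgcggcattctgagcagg
Snhg5, chr9:88522868-88522927, minus strand: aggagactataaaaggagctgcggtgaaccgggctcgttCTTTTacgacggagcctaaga
Snhg11, chr2:158375683-158375742, plus strand: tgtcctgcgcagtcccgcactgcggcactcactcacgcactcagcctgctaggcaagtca
The second Gas5 start has a run of 6 letters across the start, the Snhg5 start has a run of 5 letters further in, and neither the first Gas5 start nor Snhg11 has one in the range searched. Over the 8 start windows of the 7 listed hosts in the table, 5 hold such a run, against 39.1% of all 32851 promoters, so the letters alone do not set a host apart. The STAT5 motif TTCNNNGAA, which reads the same on both strands, is in 0 of the 8 windows of 300 bases and in 8.3% of all promoters.

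Xist, the RNA by which female cells inactivate an X chromosome, read 3.8 in replicate 2 of the Prlr+/+ P9.5 group and 10 to 10.7 in all other arrays (11 in number). Kdm5d, a gene of the Y chromosome, read 4.2 in that array and 4.1 to 4.6 in the others. What lowers Xist there was not tested. The 10 beta cell markers, Ins2 among them, averaged 10.60 to 10.96 per array in all 4 groups, while single markers moved: in Prlr+/+ islets Pcsk1 (0.77) and Ucn3 (0.60) were called higher at P9.5 and Nkx6-1 (-0.73) and Mafa (-0.67) lower, and in Prlr-/- islets Ucn3 (0.60) was called higher. Of 6 endothelial markers, Tek (0.63) and Emcn (0.77) were called higher at P9.5 in Prlr-/- islets, where the median was 0.45, and Plvap (-0.67) lower in Prlr+/+ islets, where it was -0.02. The 15 of 18 acinar cell markers with a probe set averaged 9.87 to 10.33 in Prlr+/+ NP, 10.18 to 11.04 in Prlr-/- NP, 9.13 to 10.23 in Prlr+/+ P9.5 and 8.76 to 10.24 in Prlr-/- P9.5, and between NP and P9.5, 11 were called lower and 1, Bhlha15, higher (0.93) in Prlr-/- islets, and 0 lower and the same gene higher (0.77) in Prlr+/+ islets. The part of these marker differences in the results was not tested. Fewer cells of a type and less RNA per cell cannot be told apart in these bulk samples. No probe set used here names Prlr, so the deletion was not checked here. The paper reports lower or higher mRNA between the genotypes in non-pregnant islets for Prlr alone.

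Gas5 read differently through its 4 probe sets, and this comes before any statement on the gene. Through the brightest one, 10351037, Gas5 stayed in the same range in all 4 groups. Prlr+/+ NP islets were at 8.5, 7.7 and 7.7, and Prlr-/- NP islets at 8.2, 8.4 and 7.7. Prlr+/+ P9.5 islets were at 8, 7.7 and 8.1, and Prlr-/- P9.5 islets at 7.8, 7.6 and 7.9. Every pair of groups overlapped, and the group means ran from 7.77 in Prlr-/- P9.5 to 8.10 in Prlr-/- NP, so no neighbours in this order differed beyond their spread. The array with 8.5 lifts the Prlr+/+ NP mean, which is 7.97 ± 0.46 (SD, n = 3).

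Probe set 10351035 gave 4 separate levels. It read 5.1, 5.1 and 5.2 in Prlr+/+ NP, 5.7, 5.9 and 5.8 in Prlr-/- NP, 7.2, 7.2 and 7.4 in Prlr+/+ P9.5, and 7, 7 and 7.1 in Prlr-/- P9.5. The order was Prlr+/+ NP, Prlr-/- NP, Prlr-/- P9.5 and Prlr+/+ P9.5, and no neighbours in it overlapped. Thus the receptor-deficient islets lay above the wild-type islets without pregnancy and below them at P9.5. The difference without pregnancy is the one on which Gas5 was selected. At P9.5 the nearest values of the genotypes, 7.1 and 7.2, lay 1 rounding step apart, and the difference was not called.

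The other two probe sets of Gas5 also lay higher at P9.5 than in NP. Probe set 10351026, which the annotation ties to 4 accessions where each of the others has 1, read 7.2, 7.3 and 7.1 in Prlr+/+ NP and 7.1, 7.3 and 7.4 in Prlr-/- NP. At P9.5 it read 7.6, 7.7 and 7.9 in Prlr+/+ and 7.5, 7.6 and 7.6 in Prlr-/-. All 6 pregnant arrays were above all 6 non-pregnant arrays, and the genotypes overlapped at each stage. Probe set 10351039 is dim, with 5.78% of all probe sets dimmer than its mean of 3.56. It read 2.8, 2.8 and 2.9 in Prlr+/+ NP, 3, 3.3 and 3.1 in Prlr-/- NP, 4, 4.4 and 4.3 in Prlr+/+ P9.5, and 4.3, 3.6 and 4.2 in Prlr-/- P9.5. Here too the stages did not overlap, and the genotypes overlapped at P9.5 alone.

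**Figure D1:**
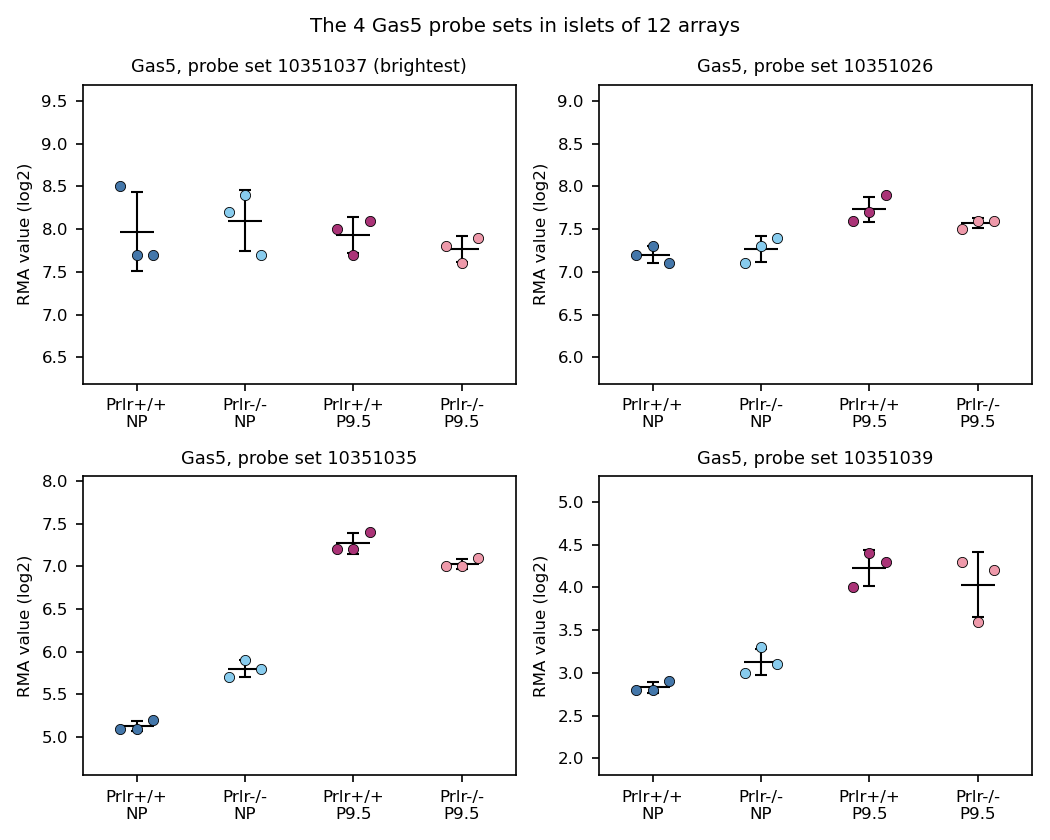
RMA value (log2) of the 4 Gas5 probe sets in 12 arrays: each point is an array, the line is the mean of 3 arrays and the bars are 1 SD. Each panel spans the same range of log2 units around its own mean. Probe set 10351037, the brightest, overlaps in all groups, while 10351035 goes from 5.13 in Prlr+/+ NP to 7.27 in Prlr+/+ P9.5.

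Across the 12 arrays, probe sets 10351026, 10351035 and 10351039 had pairwise Pearson correlations of 0.87 to 0.96, and their correlations with 10351037 were -0.26, -0.23 and -0.21. The points share arrays and a step between stages, so these values are descriptions without a p. The build and the positions of the probes are not given in the sources used here, so which stretch of Gas5 each probe set reads is not stated.

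Gas5 was chosen by its difference between the genotypes in non-pregnant islets, so this contrast is described without a test for all members. In it, 36 of all probe sets, 0.101%, were called. With the same thresholds, the paper names Prlr as the one gene that differed here. With the 2 groups of this contrast fitted alone, 0 probe sets were called higher and 0 lower. Over probe sets with 1 symbol alone, 2 were called higher and 0 lower. Why the count from all arrays and the paper's result are unlike was not tested. The probe set on which Gas5 was selected is 10351035, with a log2 fold change of 0.67 (SE 0.093), a 1.59-fold higher value in Prlr-/- islets. The brightest Gas5 probe set differed by 0.13 (SE 0.229), 10351026 by 0.07 (SE 0.110) and 10351039 by 0.30 (SE 0.172). Snhg11 differed by 0.23 (SE 0.135) and Snhg5 by 0.17 (SE 0.147). The second Snhg11 probe set differed by 0.13. The genotypes did not overlap in 10351035 and 10351039 and overlapped in the other 5 probe sets, and all 7 differences were above 0. Of these 7 probe sets, 4 read Gas5, and they share the arrays. The share of all probe sets without overlap was not counted, so nothing is read from these counts. When each array was centred on its median, the median of all probe sets in this contrast moved from 0.00 to -0.10, the value of 10351035 became 0.57, that of 10351037 became 0.03 and that of 10351026 became -0.03. The Prlr+/+ arrays and the Prlr-/- arrays of this contrast enter the pregnancy comparisons below as well.

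At P9.5 the genotypes were tested for every member, since the difference between these 6 arrays did not select Gas5. The spread behind each SE, interval and limma p was estimated from all 12 arrays. The non-pregnant arrays that selected Gas5 therefore enter these values. By limma, 0 of the 3 measured hosts were called, and 0 of 3 had an unadjusted p under 0.05, while 0.231% of all probe sets were called. Gas5 was lower in Prlr-/- islets by a log2 fold change of -0.17 through its brightest probe set, with a 95% interval of -0.67 to 0.33 (adjusted p = 0.977 from limma). Without Prlr+/+ P9.5 replicate 2, the array with low Xist, the value was -0.28. Snhg11 differed by -0.20 (interval -0.49 to 0.09) and Snhg5 by 0.10 (interval -0.22 to 0.42), each with an adjusted p of 0.977 from limma. These intervals leave room for changes of either sign.

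The remaining Gas5 probe sets were also lower in Prlr-/- islets at P9.5, and none passed the threshold over all probe sets. Probe set 10351035 fell outside the range of the wild-type arrays, with a difference of -0.23 (interval -0.44 to -0.03, unadjusted p = 0.0278, adjusted p = 0.811 from limma). Its SE of 0.093 was that of the NP contrast as well. This interval and p are therefore not independent of the selection. Probe set 10351026 differed by -0.17 and 10351039 by -0.20, each with an adjusted p of 0.977 from limma, and their groups overlapped. Without Prlr-/- P9.5 replicate 2, the value of 10351039 was 0.02, so its sign rests on that array.

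Whether Gas5 moved apart from the other hosts at P9.5 was asked through its brightest probe set alone, 10351037. The quantity was its value minus the mean of Snhg5 and Snhg11 in the same array. This quantity was 1.40, 0.80 and 1.35 in Prlr+/+ and 1.20, 0.95 and 1.05 in Prlr-/- islets, so the Prlr-/- arrays lay inside the range of the Prlr+/+ arrays. The means were 1.18 ± 0.33 and 1.07 ± 0.13 (SD, n = 3 each), a difference of -0.12 with an exact two-sided permutation p of 0.7. With 20 arrangements this test cannot go below 0.10. No separate movement of Gas5 was detectable through this probe set with these 6 arrays. The other Gas5 probe sets were not put to this test.

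In wild-type islets Snhg11 was higher at P9.5, and Snhg5 was higher by less than the fold change minimum. Snhg11, a host best known from neurons, read 6.2, 6.3 and 6.5 in Prlr+/+ NP and 6.9, 7 and 7 in Prlr+/+ P9.5 through its brighter probe set. The groups did not overlap, and Snhg11 rose by a log2 fold change of 0.63 (1.55-fold, SE 0.135, adjusted p = 0.00685 from limma). Snhg5, the host of the U50 snoRNAs, read 5.8, 6 and 6.1 in Prlr+/+ NP and 6.3, 6.8 and 6.5 in Prlr+/+ P9.5. Its difference of 0.57 (1.48-fold, SE 0.147) had an adjusted p of 0.0181 from limma and lay under the fold change minimum, so it was not called. Of the members other than Gas5, 1 of 2 was therefore called in wild-type islets, and it was higher. Of all probe sets, 5.73% were called higher and 4.21% lower in this comparison.

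The call of Snhg11 rests on 1 array and on the choice of probe set. Without Prlr+/+ NP replicate 1 the log2 fold change was 0.57 (adjusted p = 0.0228 from limma), which is under the fold change minimum. The second Snhg11 probe set, 10478073, read 5.4, 5.7 and 5.7 in Prlr+/+ NP and 5.5, 5.3 and 5.9 in Prlr+/+ P9.5, a difference of -0.03 (SE 0.168), and the mean of both Snhg11 probe sets differed by 0.30 with an adjusted p of 0.135 from limma. Without the array with low Xist, Snhg11 remained called at 0.62, and Snhg5 differed by 0.43 with an adjusted p of 0.0735 from limma.

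In Prlr-/- islets, 0 of the 2 members other than Gas5 were called by limma, and 1 of 2 had an unadjusted p under 0.05. Of all probe sets, 7.44% were called higher and 7.09% lower. Snhg5 read 5.9, 6.2 and 6.3 in Prlr-/- NP and 6.7, 6.5 and 6.7 in Prlr-/- P9.5, with no overlap. The difference of 0.50 (1.41-fold, SE 0.147, adjusted p = 0.0227 from limma) was again under the fold change minimum. Snhg11 read 6.4, 6.6 and 6.7 in Prlr-/- NP and 6.5, 6.8 and 7 in Prlr-/- P9.5, which overlapped, with a difference of 0.20 (SE 0.135, adjusted p = 0.27 from limma). Its second probe set differed by -0.17. When arrays were centred on their medians, the share of higher calls among all called probe sets in Prlr-/- islets went from 51.2% to 76.2%, and in Prlr+/+ islets from 57.7% to 70.2%; under that scaling Snhg5 was called in both genotypes.

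**Figure D2:**
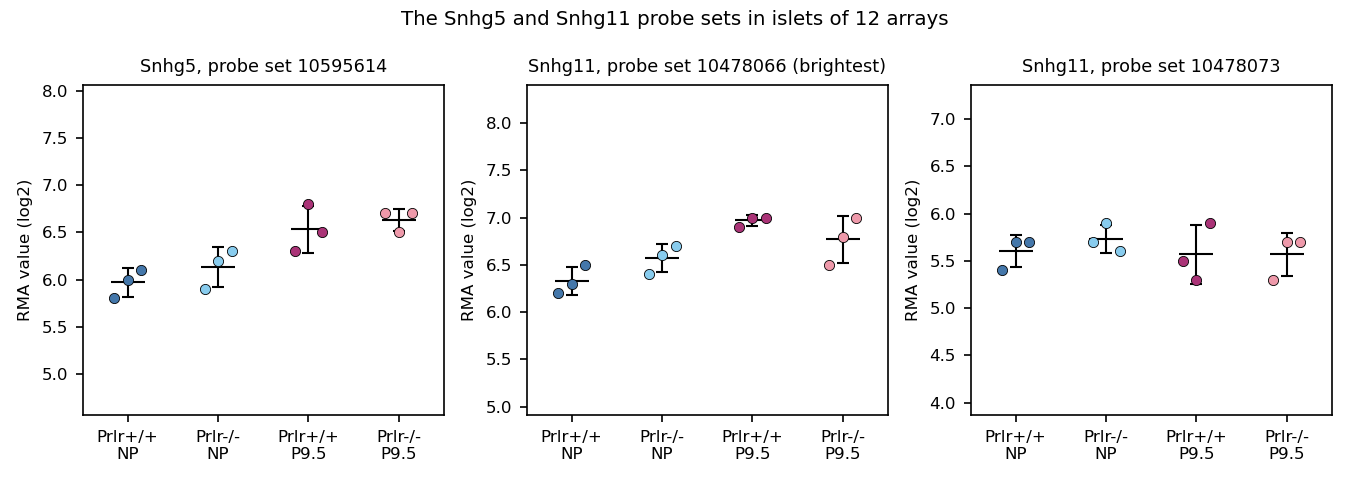
RMA value (log2) of the Snhg5 probe set and both Snhg11 probe sets in 12 arrays: points are arrays, lines are means of 3 arrays and bars are 1 SD, and each panel spans the same range of log2 units around its own mean. Snhg5 is higher at P9.5 in both genotypes, Snhg11 probe set 10478066 has no overlap between stages in Prlr+/+ alone, and 10478073 overlaps throughout.

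For Gas5 the same comparisons are descriptions, since they share the non-pregnant arrays with the contrast that selected it. In Prlr+/+ islets the brightest probe set differed by -0.03, 10351026 by 0.53 (1.45-fold), 10351035 by 2.13 (4.39-fold) and 10351039 by 1.40 (2.64-fold). In Prlr-/- islets the values were -0.33, 0.30 (1.23-fold), 1.23 (2.35-fold) and 0.90 (1.87-fold) in the same order. The stages overlapped in both genotypes for the brightest probe set and in neither for the other 3. How many of all probe sets had no overlap was not counted. A mean over the 4 probe sets of Gas5 differed by 1.01 in Prlr+/+ and by 0.52 in Prlr-/- islets, so the choice of the brightest probe set sets what is read of Gas5 in pregnancy. Without Prlr+/+ NP replicate 1, the brightest probe set differed by 0.23 in Prlr+/+ islets.

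Whether the change between stages differed between the genotypes was asked with the interaction of both. In Prlr-/- islets that change includes the pellet. By limma, 0 of the 2 members other than Gas5 were called and 1 of 2 had an unadjusted p under 0.05, against 0.0788% of all probe sets called. The change of Snhg11 was smaller in Prlr-/- islets by 0.43, an interaction of -0.43 (SE 0.191, unadjusted p = 0.043, adjusted p = 0.486 from limma). That of Snhg5 differed by -0.07 (SE 0.208, adjusted p = 0.945 from limma). The Gas5 probe sets had interactions of -0.30 for 10351037, -0.23 for 10351026, -0.90 for 10351035 and -0.50 for 10351039, given with no test. All 6 probe sets named here had an interaction below 0, and they share all 12 arrays; that of Snhg5 lay at 0.00 to 0.07 with median centring, with array weights and when Prlr-/- NP replicate 3, the array with low Xist or replicate 1 of Prlr+/+ NP was left out, so its sign is not settled.

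The genes most like Gas5 over the 12 arrays depended on the probe set too. Among 9688 genes whose SD over the arrays was at least 0.2, the brightest Gas5 probe set correlated best with Btbd16 (Pearson r = 0.858), Proca1 (0.840), 4930483J18Rik (0.802), 4930513N10Rik (0.800) and Izumo2 (0.789). Its lowest values were with Cngb3 (-0.785), Snord61 (-0.784) and Rnu6 (-0.743). For 10351026 the highest were Rps3a1 (0.955) and Rps6 (0.948), which encode ribosomal proteins, and Eif4a2 (0.944), a translation initiation factor whose gene hosts snoRNAs. For 10351035 they were Trmt13 (0.976), Mccc1 (0.970) and Ifrd1 (0.970), and for 10351039 Spidr and Hibch (0.983 each) and Trmt13 (0.973). These genes of the 3 dimmer probe sets were chosen after their values were seen. The points share the step between stages, and no p is given. Snhg11 and Snhg5 correlated with 10351026 at 0.84 and 0.79, with 10351035 at 0.86 and 0.86, and with 10351037 at -0.31 and -0.49.

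The snoRNAs that the hosts carry were read next, through probe sets of their own. RefSeq positions, compared without strand, place 8 snoRNA genes inside Gas5, 8 inside Snhg1, 4 inside Snhg12, 2 each inside Snhg3, Snhg5 and Snhg11, and 1 each inside Snhg6 and Snhg8. Of all these, 7 have a probe set of their own: Snord47 in Gas5, Snord22 in Snhg1, Snora73a and Snora73b in Snhg3, Snord87 in Snhg6, and Snora16a and Snora44 in Snhg12. A probe set within an intron can also read the unspliced host RNA, and the share of each was not tested.

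Snord47 in Gas5 and Snord87 in Snhg6 were higher in pregnancy in both genotypes. Snord47, a box C/D snoRNA, read 4, 4.3 and 4 in Prlr+/+ NP, 4.3, 4.3 and 4.1 in Prlr-/- NP, 4.8, 5.4 and 4.6 in Prlr+/+ P9.5, and 4.8, 4.8 and 5.2 in Prlr-/- P9.5. Every pregnant array was above every non-pregnant array. It rose by a log2 fold change of 0.83 (SE 0.190, adjusted p = 0.00971 from limma) in Prlr+/+ and of 0.70 (adjusted p = 0.0158 from limma) in Prlr-/- islets. Snord87, also box C/D, read 3.8, 4 and 4.2 in Prlr+/+ NP, 3.8, 3.9 and 4.2 in Prlr-/- NP, 4.6, 4.9 and 4.6 in Prlr+/+ P9.5, and 4.9, 4.7 and 5 in Prlr-/- P9.5. It rose by 0.70 (adjusted p = 0.00588) and by 0.90 (adjusted p = 0.000987, both from limma). The call of Snord47 in Prlr-/- islets was lost without replicate 3 of either stage, at 0.63 (adjusted p = 0.0526 from limma) without the NP array and 0.57 (adjusted p = 0.0683 from limma) without the P9.5 array. At P9.5 neither differed between the genotypes beyond the spread, with differences of 0.00 for Snord47 and 0.17 for Snord87.

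The 5 other hosted snoRNAs did not pass the test in any comparison with all arrays. Snord22 in Snhg1 read 8.1, 5.9 and 5.7 in Prlr+/+ NP against 5.2 to 5.9 in the other 9 arrays. Snora16a in Snhg12 read 7.6, 5.5 and 5.9 in Prlr+/+ NP against 5.3 to 6.2 elsewhere. Their differences of -0.83 and -0.93 between stages in Prlr+/+ islets rest on Prlr+/+ NP replicate 1, and without it they were -0.07 and -0.30. Without Prlr+/+ NP replicate 2, Snora16a was called at -1.35 (adjusted p = 0.0363 from limma). The H/ACA snoRNAs Snora73a, Snora73b and Snora44 differed by -0.27, -0.20 and -0.13 in Prlr+/+ and by -0.23, -0.13 and -0.23 in Prlr-/- islets, where Snora73b was at 0.03 with median centring.

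**Figure D3:**
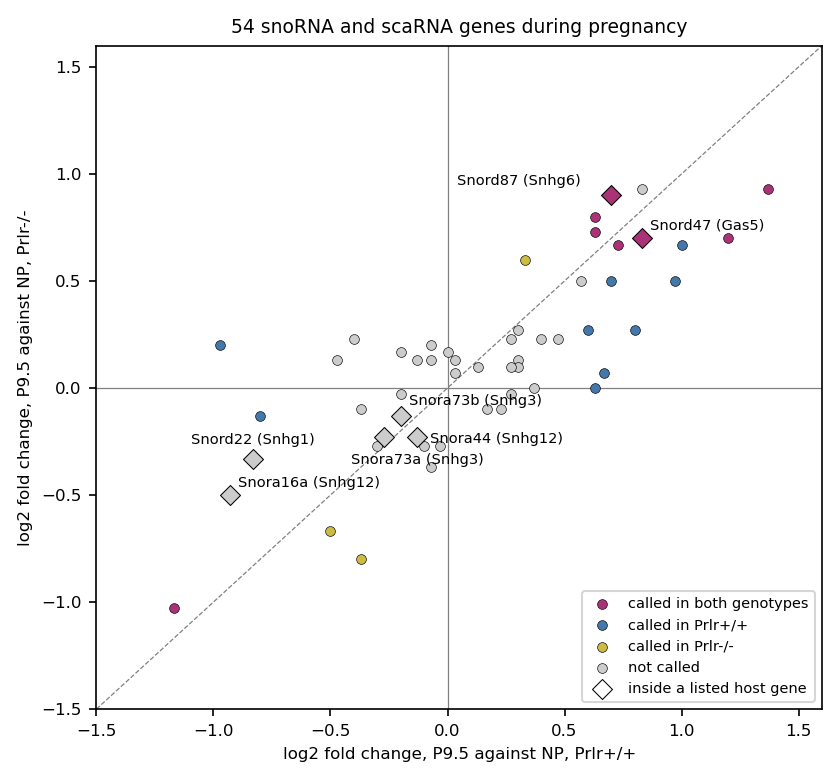
Log2 fold change between P9.5 and NP of 54 snoRNA and scaRNA genes, in Prlr+/+ islets (horizontal axis) and Prlr-/- islets (vertical axis). Each point is a gene, colours give the genotype in which it was called, diamonds are inside a listed host gene named in brackets, and the dashed line marks equal changes. Snord47 and Snord87 lie at the upper right and the 5 other hosted snoRNAs lie below 0 on both axes, of which Snora73b in Prlr-/- islets was at 0.03 with median centring.

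Among all 54 snoRNA and scaRNA genes on a probe set that names no other gene, 14 were higher, 3 lower and 37 not called at P9.5 in Prlr+/+ islets, with a median log2 fold change of 0.20 against -0.07 over all probe sets. The shares over all probe sets were 5.73% higher and 4.21% lower, and the 3 lower snoRNAs are near the latter. For Prlr-/- islets, 8 were higher, 3 lower and 43 not called, with a median of 0.13 against -0.07 and all-probe-set shares of 7.44% and 7.09%. Of the higher ones, 7 were called in both genotypes, which is 50% of those in Prlr+/+ and 87.5% of those in Prlr-/- islets. These comparisons share no array. Over all probe sets, 2034 were called higher in Prlr+/+ and 2641 in Prlr-/- islets, and their overlap was not counted. Whether the overlap is particular to snoRNAs was therefore not tested. Snord42b rose by 1.37 in Prlr+/+ and 0.93 in Prlr-/- islets and Snord73b by 1.20 and 0.70, and Snora75 (1.00) and Scarna17 (0.97) were called in Prlr+/+ islets. Snord15b fell by 1.17 in Prlr+/+ and by 1.03 in Prlr-/- islets. Snord104 (-0.97) and Snord33 (-0.80) were called lower in Prlr+/+ islets, and Snord8 (-0.80) and Snord55 (-0.67) in Prlr-/- islets; Snord33 and Snord55 are named to complete the counts, after their values were seen. Snord58b (0.63 and 0.80) and Snord37 (0.63 and 0.73) were called higher in both. Snord42b, Snord73b, Snord15b, Snord87, Snord8 and Scarna17 kept their calls whichever single array was left out, while Snora75, Snord104, Snord33, Snord37, Snord58b and Snord55 each lost a call without at least 1 of the arrays. By limma, 0 of 54 were called between genotypes in NP, at P9.5 or in the interaction, with 2, 3 and 7 at an unadjusted p under 0.05.

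Prlr+/+ NP replicate 1 stood apart in the snoRNA probe sets. It was the single highest array for 14 of the 54, and for 5.76% of all probe sets. Prlr+/+ P9.5 replicate 2 was the single highest for 9, and replicate 3 of Prlr+/+ P9.5 and of Prlr-/- P9.5 for 6 each. In Prlr+/+ NP replicate 1, 7 of the 54 (13%) were 1 or more above their median over the arrays, against 0.335% of all probe sets. These 7 were Snord22 (2.35 above), Snora16a (2.00), Snord104 (1.5), Snord16a (1.45), Snord49b (1.40), Snora23 (1.30) and Snord15b (1.20). In each of the other 11 arrays, 0 or 1 of the 54 were that far above. The brightest Gas5 probe set had its highest value, 8.5, in this array. Without it, 10 snoRNAs were higher and 1 lower in Prlr+/+ islets at P9.5, 11 of the 17 called with all arrays; Snord47 and Snord87 were then at 0.78 and 0.60 (adjusted p = 0.0293 and 0.0198 from limma), and Snora75, Snord104 and Snord33 were no longer called. Without the array with low Xist, 12 of the 17 were called. What sets replicate 1 apart was not tested.

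**Figure D4:**
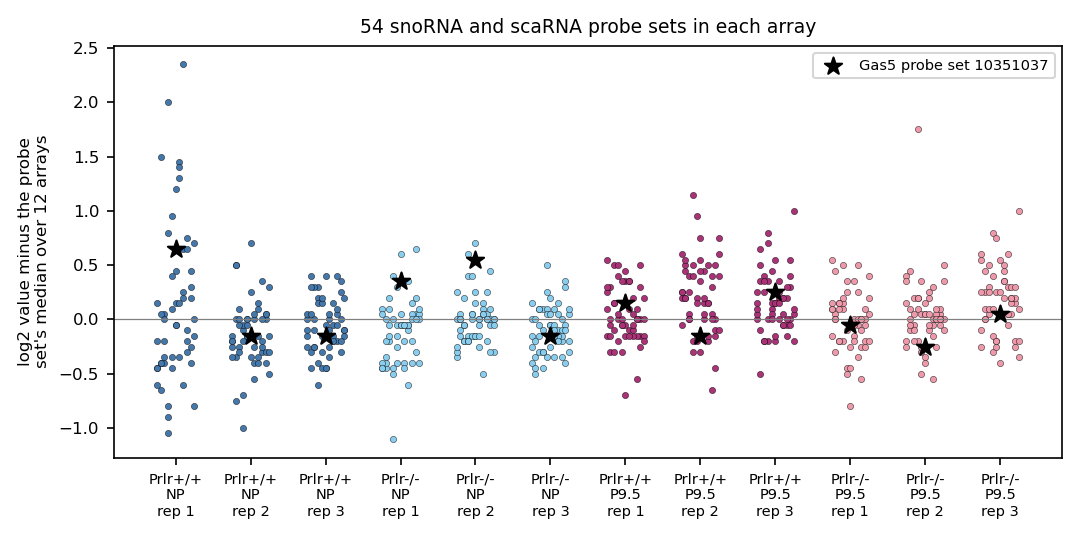
Deviation of 54 snoRNA and scaRNA probe sets from their own median over 12 arrays (log2, vertical axis) in each array (horizontal axis, grouped by genotype and stage); stars mark the brightest Gas5 probe set. Prlr+/+ NP replicate 1 holds 7 points above 1, up to 2.35, and the other arrays hold 0 or 1 each.

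Other non-coding hosts were measured for 4 of 13 listed genes. Snhg16 rose in Prlr+/+ islets: it read 5.3, 4.8 and 5.4 in NP and 5.9, 5.8 and 6.3 at P9.5, which is higher by 0.83 on the log2 scale (SE 0.204, adjusted p = 0.0137 from limma). Without Prlr+/+ NP replicate 2 the difference was 0.65 (adjusted p = 0.0564 from limma) and was not called. Prlr-/- islets read 5.1, 5.4 and 5.3 in NP and 6, 5.4 and 6 at P9.5, a difference of 0.53 that was not called, and without P9.5 replicate 2 it was called at 0.73. Dancr, Snhg15 and Snhg17 differed by 0.27, -0.03 and 0.20 in Prlr+/+ and by 0.00, 0.17 and 0.03 in Prlr-/- islets, none of them called. The list's median was 0.23 in Prlr+/+ and 0.10 in Prlr-/- islets.

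Protein-coding snoRNA hosts were measured for 28 of 35 listed genes, and 5 rose in Prlr+/+ islets with 0 lower. They were Nop56 (1.07), Dkc1 (0.93), the translation factors Eif4a1 (0.73) and Eif4a2 (0.63), and Taf1d (0.67), a part of the RNA polymerase I machinery. The 3 that rose in Prlr-/- islets were Nop56 (1.03), Dkc1 (0.87) and Eif4a1 (0.60). Nop56 and Dkc1 kept their calls whichever array was left out. Without replicate 3 of Prlr+/+ NP or of Prlr+/+ P9.5, Eif4a2 was not called (0.55 and 0.58), Taf1d was not called without replicate 2 of the former (0.58) or replicate 3 of the latter (0.48), and Eif4a1 was not called in Prlr-/- islets without P9.5 replicate 1 (0.55). Over all probe sets 5.73% were called higher in Prlr+/+ and 7.44% in Prlr-/- islets, and the 3 of 28 lie near the latter. The list's medians were 0.35 and 0.15. The remaining members, ribosomal protein genes for the most part, ranged down to -0.23 in Prlr+/+ and -0.43 in Prlr-/- islets.

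Proteins that bind and mature snoRNAs were measured for 14 of 15 listed genes, and all 14 differences were above 0 in both genotypes, also with median centring and quantile normalization. In Prlr+/+ islets 6 rose: Nop56 and Nop58 (1.07 each), core proteins of box C/D particles, Dkc1 (0.93), the pseudouridine synthase of H/ACA particles, its partners Nop10 and Gar1 (0.77 each), and Nolc1 (0.60), a nucleolar chaperone of snoRNPs. Nolc1 was not called without replicate 1 or 3 of Prlr+/+ NP (0.58 each) or without the array with low Xist (0.47). Nop56 (1.03), Dkc1 (0.87) and Nop58 (0.83) were the 3 that rose in Prlr-/- islets. Nop56 read 8.2, 7.7 and 8 in Prlr+/+ NP, 8, 8 and 8.1 in Prlr-/- NP, 9.1, 9.1 and 8.9 in Prlr+/+ P9.5, and 9.1, 9 and 9.1 in Prlr-/- P9.5, with no overlap between stages. The medians were 0.48 and 0.40, and the shares of all probe sets called higher were 5.73% and 7.44%. Nop56 and Dkc1 are in both this list and that of coding hosts, since their introns carry snoRNAs too.

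Genes of nonsense-mediated decay, the route that removes spliced Gas5 RNA, were measured for 12 of 16. The medians over the list were -0.05 in Prlr+/+ and 0.00 in Prlr-/- islets. By limma, 1 of 12 was called higher in Prlr+/+ and 3 of 12 in Prlr-/- islets, with 0 lower in each. Of all probe sets, 5.73% and 7.44% were called higher. At an unadjusted p under 0.05 from limma, 4 were higher and 3 lower in Prlr+/+ islets, and 5 higher and 0 lower in Prlr-/- islets. The share of all probe sets at that p was not counted, so nothing is read from these numbers. Etf1, the release factor that recognises stop codons, rose by 0.70 in Prlr+/+ and by 0.87 in Prlr-/- islets, and Upf2 and Eif4a3 rose in Prlr-/- islets (0.67 each). The means of Eif4a3 were 7.53 in Prlr+/+ NP, 6.80 in Prlr-/- NP, 7.53 in Prlr+/+ P9.5 and 7.47 in Prlr-/- P9.5. Its rise thus started from a low Prlr-/- NP group. That group differed from Prlr+/+ NP by -0.73 without overlap and was not called (adjusted p = 0.198 from limma). Without Prlr-/- NP replicate 1, neither Upf2 (0.58, adjusted p = 0.0082 from limma) nor Eif4a3 (0.47, adjusted p = 0.104 from limma) was called, and Etf1 was. Upf2 was also not called without Prlr-/- P9.5 replicate 3 (0.58), nor Eif4a3 without replicate 1 (0.70, adjusted p = 0.0507 from limma) or replicate 2 (0.50) of that group. Of the mTOR and cap-binding genes behind 5′TOP control, 12 of 13 were measured. By limma, 2 were called higher and 1 lower in Prlr+/+ islets, and 2 higher and 0 lower in Prlr-/- islets. Of all probe sets, 4.21% and 7.09% were called lower. Rheb, the activator of mTOR, and Eif4e, the cap-binding factor, rose in Prlr+/+ (0.77 each) and Prlr-/- islets (0.87 each), and Rptor, a scaffold protein of an mTOR complex, fell by 0.63 in Prlr+/+ islets, a call lost without NP replicate 2 or P9.5 replicate 1 (-0.57 each). Their medians were -0.18 and -0.13.

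The list of glucocorticoid receptor targets, which also holds the receptor gene Nr3c1, was measured for 14 of 14. It included 3 lower genes and 0 higher in each genotype, where 4.21% and 7.09% of all probe sets were called lower. Zbtb16 fell by 1.5 in Prlr+/+ and by 1.40 in Prlr-/- islets, and Fkbp5, a co-chaperone of the receptor, fell by 0.93 and by 0.80. Per1 fell by 0.67 in Prlr+/+ and Mt1 by 0.67 in Prlr-/- islets, and Mt1 was not called without Prlr-/- NP replicate 1 or P9.5 replicate 3 (-0.58 each). Zbtb16 read 6.7 in Prlr+/+ NP replicate 1 and 7.6 to 8 in the other NP arrays, and Fkbp5 read 9 there and 9.7 to 9.9 in the others, so this array was the low one. Without it, Zbtb16 and Fkbp5 fell by 1.92 and by 1.22 in Prlr+/+ islets. The medians of the list were -0.12 and -0.08. The part of the receptor in these changes was not tested.

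**Figure D5:**
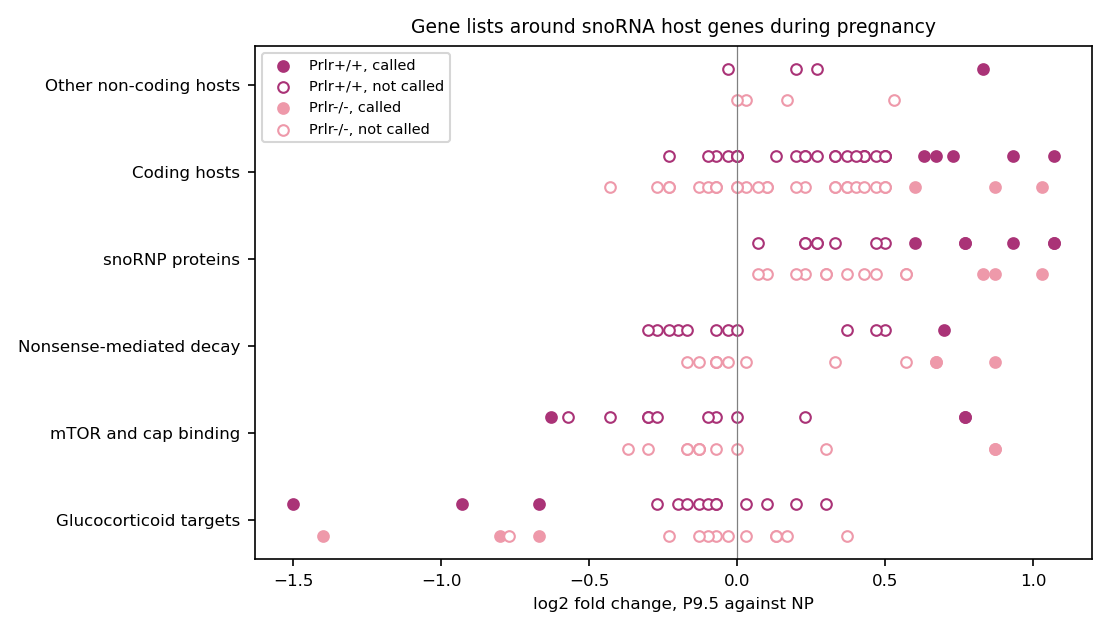
Log2 fold change between P9.5 and NP (horizontal axis) of the measured genes of 6 lists, in Prlr+/+ (dark) and Prlr-/- islets (light); each circle is a gene and filled circles were called. The snoRNP proteins all lie above 0 and the called glucocorticoid targets lie below 0.

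Between genotypes, 0 genes of these 6 lists were called by limma in NP, at P9.5 or in the interaction. At an unadjusted p under 0.05 there were 0 to 3 genes a list in NP, 0 to 2 at P9.5 and 0 to 4 in the interaction. The calls of these lists stand in the pregnancy comparisons, where the acinar and endothelial markers also differed. The median log2 fold change of the acinar markers was -0.53 in Prlr+/+ and -1.43 in Prlr-/- islets. By limma, 0 of 15 acinar markers were called in the interaction and 0 had an unadjusted p under 0.05, with a median of -0.77. In the interaction 0 of 6 endothelial markers were called by limma, and 4 of 6 were higher at an unadjusted p under 0.05, with a median of 0.50; between genotypes in NP, 3 of 6 were lower at that level and 0 were called. The part of these markers in the results was not tested.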

How the data were processed

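RNA of islets from 12 samples, 3 in each of 4 groups, was hybridised to Affymetrix MoGene_1.0_ST arrays, and the number of arrays limits the precision. The deposited log2 values were made by the authors by robust multichip analysis in aroma.affymetrix, which corrects the background, normalizes probes by quantiles and summarises each probe set; they are rounded to steps of 0.1 and all 12 value columns were used. Groups and replicates came from the sample labels. The array annotation gave the symbols, with 21789 probe sets under 1 symbol, 1621 under several and 12101 under none.

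In R 4.3.3 with limma 3.58.1, 4 group means without covariate were fitted by lmFit and eBayes over the 35511 probe sets, and the Benjamini-Hochberg adjustment spans them all. A difference between P9.5 arrays was tested by an exact permutation test. The calling was tested on simulated data. The labels do not say whether the replicate numbers pair the arrays, and no pairing was assumed. The deviations of same-numbered arrays correlated at -0.114 to 0.227, and at over 0.1 in 7 of 18 pairs, which does not settle it. Start site sequences are from RefSeq (GRCm38.p6). SnoRNAs were assigned to hosts by position, since the gene table has no strand.

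Members and gene lists were chosen with earlier results of these data known. Named genes are the measured members, the hosted snoRNAs, up to 6 called genes with the largest change in each list and comparison, and for Gas5 the 5 genes with the highest and the 3 with the lowest correlation. Alternatives were a replicate block, leaving out each array, leaving out the dimmest 40% of probe sets, those with 1 symbol alone, array weights, quantile normalization, median centring, a robust prior with an intensity trend, other fold change minimums, the 2 groups compared alone and a mean over a member's probe sets.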

Additional observations from a re-analysis of the deposited data

Results flagged for a closer look

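Gas5 probe set 10351035 had an interaction of pregnancy and genotype of -0.90 on the log2 scale (SE 0.131), from changes of 2.13 in Prlr+/+ and 1.23 in Prlr-/- islets, and the 3 arrays of each group lay within 0.2 of each other. It was -0.80 with median centring and -0.82 with quantile normalization. It is the P9.5 difference of -0.23 minus the NP difference of 0.67 on which Gas5 was selected, so it mostly restates the selecting values, no p is given, and it is no independent evidence. At P9.5 alone the adjusted p was 0.811 from limma, with a spread estimated from all 12 arrays. The brightest Gas5 probe set had an interaction of -0.30 (SE 0.323). Groups of 3 arrays were not searched for single samples far from the others.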

How the results depend on the processing

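At P9.5, 0 of 3 hosts were called between genotypes under every alternative run, and 0 of 2 members other than Gas5 were called in the interaction. In Prlr+/+ islets at P9.5, 1 of these 2 was called; the count was 2 with median centring, quantile normalization or no fold change minimum, 0 with a minimum of 2 or a mean over probe sets, and 0 to 2 when leaving out each array, 0 without Prlr+/+ NP replicate 1 and 2 without Prlr+/+ NP replicate 3 or P9.5 replicate 1. In Prlr-/- islets it was 0, 1 with median centring or no minimum, and 0 to 0 when leaving out each array. With the replicate block, a pairing that the labels do not state, the counts were again 1 and 0, and 0 at P9.5. No call of a member changed.

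For the lists, leaving out each array gave, in Prlr+/+ and Prlr-/- islets, 0 to 1 and 0 to 1 other non-coding hosts (1 and 0 with all arrays), 4 to 6 and 2 to 5 coding hosts (5 and 3), 5 to 6 and 3 to 4 snoRNP genes (6 and 3), 1 to 1 and 1 to 4 decay genes (1 and 3), 2 to 4 and 2 to 2 mTOR and cap-binding genes (3 and 2), 3 to 3 and 2 to 4 glucocorticoid targets (3 and 3), and 11 to 17 and 9 to 12 snoRNAs (17 and 11). Single arrays moved 5 of these by over 1.5 times: other hosts 0 without Prlr+/+ NP replicate 2 and 1 without Prlr-/- P9.5 replicate 2, coding hosts 5 without Prlr-/- P9.5 replicate 2, decay genes 1 without Prlr-/- NP replicate 1, and snoRNAs 11 without Prlr+/+ NP replicate 1. With a fold change minimum of 2, the counts in Prlr+/+ were 0, 1, 2, 0, 0, 1 and 4 in the same order, and in Prlr-/- 0, 1, 1, 0, 0, 1 and 1. With no minimum, coding hosts were 11 and 9, snoRNP genes 7 in Prlr-/-, decay genes 3 and 5, and mTOR and cap-binding genes 6 and 4. Median centring gave 1 other host, 7 coding hosts and 7 snoRNP genes in Prlr-/- islets, and quantile normalization 1 other host there and 3 coding hosts in Prlr+/+. Leaving out the dimmest 40% of probe sets left 9 and 5 called snoRNAs. At P9.5 between genotypes, 1 snoRNA was called over probe sets with 1 symbol and 1 with array weights, against 0.

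Small differences changed sign. Gas5 probe set 10351039 at P9.5 ranged from -0.33 to 0.02 when leaving out each array, with 0.02 without Prlr-/- P9.5 replicate 2, and Snhg5 from -0.02 (without Prlr+/+ P9.5 replicate 1) to 0.23. Snhg11 probe set 10478073 in Prlr+/+ pregnancy was 0.03 with median centring, 0.06 with quantile normalization and -0.20 to 0.10 when leaving out each array (0.02, 0.02 and 0.10 without Prlr+/+ NP replicates 2 and 3 and P9.5 replicate 2), 0.01 in Prlr-/- with quantile normalization, and -0.27 to 0.03 in the interaction, 0.03 without Prlr+/+ P9.5 replicate 3. The Snhg5 interaction was 0.03 with median centring, 0.00 with array weights, and -0.18 to 0.07 when leaving out each array, with 0.02, 0.02 and 0.07 without Prlr-/- NP replicate 3, Prlr+/+ NP replicate 1 and Prlr+/+ P9.5 replicate 2. Leaving out each array moved the brightest Gas5 probe set at P9.5 between -0.28 and -0.08. Its value minus the other hosts moved between -0.31 and -0.01.

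Values rounded to 0.1 and 3 arrays a group limit what small differences can show, and median centring itself moves in such steps: it took the median of all probe sets in Prlr-/- pregnancy from -0.07 to 0.10. Among called probe sets, 63.7% and 61.7% were higher in Prlr+/+ and Prlr-/- islets without the dimmest 40%, and 72.6% and 71% among those with 1 symbol.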

Other observations

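Some snoRNA probe sets carry more than 1 symbol and entered no count above. That of Snora24 and its host Snhg8 read 5.6, 5.2 and 5.6 in Prlr+/+ NP, 5.5, 5.7 and 5.5 in Prlr-/- NP, 5.8, 7.1 and 5.8 in Prlr+/+ P9.5, and 6.1, 6.3 and 6 in Prlr-/- P9.5. Every pregnant array was above every non-pregnant one, with differences of 0.77 in Prlr+/+ (adjusted p = 0.0742 from limma) and 0.57 in Prlr-/- islets (adjusted p = 0.142 from limma), and the value of 7.1 is that of the array with low Xist.

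The probe set of Snord34 and its host Rpl13a, a ribosomal protein gene, read 6.3, 6.6 and 6.1 in Prlr+/+ NP, 5.7, 6.1 and 5.8 in Prlr-/- NP, 5.2, 5.1 and 5.2 in Prlr+/+ P9.5, and 5.2, 5.3 and 5.6 in Prlr-/- P9.5. It fell by 1.17 in Prlr+/+ islets (adjusted p = 0.000651 from limma), and that of Snord32a in the same host fell by 0.83 (adjusted p = 0.00259 from limma). The probe set of Snord14a and Rps13 rose by 0.97 in Prlr+/+ islets (adjusted p = 0.0021 from limma) and differed by 0.27 in Prlr-/- islets, and that of Snord68 and Rpl13 rose by 0.90 (adjusted p = 0.00162 from limma) and differed by 0.53. These were chosen after their values were seen.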
